A study of Mus musculus with 4 samples.

Results

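The DNA replication and S-phase genes are 43 genes whose products license replication origins, supply deoxynucleotides, copy DNA at the fork, guard the fork and rebuild chromatin behind it. They were taken as a named list, all 43 are present among the 25071 gene symbols of the series, and the rule of the list uses no measured value. They were followed in vaginal epithelium of C57BL/6 mice by Drop-seq, a droplet method in which beads barcode the transcripts of single cells, and unique molecular identifiers (UMIs) let copies of 1 molecule be counted once. The 2 OVX libraries came from mice whose ovaries had been removed by surgery, and the 2 WT libraries from ovary-intact mice of the same strain. Each library is a pool of 5 mice, and the series text speaks of duplicate runs, so the libraries of a group may be separate pools or repeat runs and the p-values below measure only the spread between libraries. The ages of the mice, the time since surgery and the oestrous stage of the intact mice were not stated.

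Most of these genes are switched on together before S phase by E2F transcription factors, once cyclin and CDK activity has released them from the retinoblastoma protein. Origins are licensed when CDC6 and CDT1 load the MCM helicase, and geminin blocks loading again until the cell has divided. The vaginal epithelium is a stratified tissue in which basal cells divide and suprabasal cells differentiate, and oestrogen from the ovaries drives its growth through the cycle.

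Some promoters of the list hold letters of the E2F motif, and a few of these promoters are shown first. Of the 43 members, 33 matched the RefSeq promoter table (build GRCm38.p6, 250 bases before to 50 bases after each start). The letters searched on both strands, with overlaps counted, were TTTCCCGC, TTTCGCGC, TTTGCCGC and TTTGGCGC. At least 1 promoter held 1 of them in 15 of the 33 members (45.5%), against 2.605% of all 27025 genes in the table. Such letters were held by 3 of the 8 members in the table that were called lower in OVX libraries and by 12 of the 25 that were not. The promoters printed are those of the 3 called members with a match and of the 2 uncalled members with a match and a fold change nearest to none, Pold3 and Cdca7. Each is written on the strand of the gene, with the matches in capitals. In Mcm5 the capitals hold 2 overlapping matches. A match is a run of letters and not a measured binding site.
Uhrf1 (chr17:56304063-56304362, plus strand): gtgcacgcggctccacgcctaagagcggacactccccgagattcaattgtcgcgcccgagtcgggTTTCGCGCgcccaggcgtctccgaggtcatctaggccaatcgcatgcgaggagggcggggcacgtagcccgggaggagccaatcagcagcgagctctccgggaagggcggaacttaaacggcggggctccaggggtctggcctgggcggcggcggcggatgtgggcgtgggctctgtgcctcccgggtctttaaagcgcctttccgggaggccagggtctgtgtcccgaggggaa
Clspn (chr4:126556730-126557029, plus strand): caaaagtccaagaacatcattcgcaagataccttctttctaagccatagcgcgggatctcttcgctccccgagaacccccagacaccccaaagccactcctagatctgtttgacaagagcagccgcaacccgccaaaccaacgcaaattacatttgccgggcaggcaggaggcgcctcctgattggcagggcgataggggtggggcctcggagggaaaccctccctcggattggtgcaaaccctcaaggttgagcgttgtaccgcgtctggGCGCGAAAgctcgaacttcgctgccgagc
Mcm5 (chr8:75109259-75109558, plus strand): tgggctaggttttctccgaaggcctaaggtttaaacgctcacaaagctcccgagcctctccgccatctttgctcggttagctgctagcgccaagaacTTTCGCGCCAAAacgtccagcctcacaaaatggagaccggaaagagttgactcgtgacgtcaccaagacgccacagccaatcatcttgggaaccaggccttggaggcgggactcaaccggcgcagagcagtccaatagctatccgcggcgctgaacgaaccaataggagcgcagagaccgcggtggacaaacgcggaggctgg
Pold3 (chr7:100121453-100121752, minus strand): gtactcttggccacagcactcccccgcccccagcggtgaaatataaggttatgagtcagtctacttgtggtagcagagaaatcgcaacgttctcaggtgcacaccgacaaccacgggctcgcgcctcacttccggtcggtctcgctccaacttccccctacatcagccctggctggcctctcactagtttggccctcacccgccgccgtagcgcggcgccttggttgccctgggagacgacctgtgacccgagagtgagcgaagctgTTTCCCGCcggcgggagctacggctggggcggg
Cdca7 (chr2:72475969-72476268, plus strand): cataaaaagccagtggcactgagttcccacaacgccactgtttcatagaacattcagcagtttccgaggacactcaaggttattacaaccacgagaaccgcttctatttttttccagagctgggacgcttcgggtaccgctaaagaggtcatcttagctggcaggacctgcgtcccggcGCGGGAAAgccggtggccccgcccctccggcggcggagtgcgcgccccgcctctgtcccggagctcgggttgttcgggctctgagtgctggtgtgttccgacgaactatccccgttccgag

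The libraries differ in depth and in RNA quality. Kept cells numbered 1573 and 1907 in the OVX libraries, against 2979 and 1987 in the WT libraries. Their UMIs summed to 798916 and 1636888 in OVX, against 5830417 and 1930040 in WT. The median cell held 435 and 738 UMIs in OVX, against 1597 and 799 in WT. The median mitochondrial share was 8.97% and 9.69% in OVX, against 4.00% and 3.85% in WT. Malat1, an RNA kept in the nucleus, made up 2.5% and 1.81% of UMIs in OVX, against 0.336% and 0.465% in WT. The tissue label holds, since 15 of 15 basal keratinocyte markers were detected, with 8648 and 9202 CPM (UMIs per 1000000) in OVX, against 45289 and 26726 CPM in WT. Markers of fibroblasts summed to 210 and 193 CPM in OVX, against 1.37 and 26.9 CPM in WT, and those of macrophages to 115 and 120 CPM in OVX, against 22.6 and 18.1 CPM in WT. These measures move with the groups in every comparison of OVX with WT below, and their part in the results was not tested. Only 9 cell barcodes among kept cells occur in more than 1 library.

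In whole libraries, the genes that make deoxynucleotides were the most reduced group, and a few abundant genes, Cdca7 and Usp1 among them, had log2 fold changes near 0. All 43 members entered the test. By edgeR's quasi-likelihood test, 10 were lower in OVX and none was higher, at an adjusted p under 0.05 over 11495 genes, of which 2.52% were called lower and 2.58% higher. DESeq2 called 13 lower and none higher, where it called 435 lower and 272 higher among 24775 genes. With edgeR, 29 members had an unadjusted p under 0.05, as had 2298 of all 11495 genes tested, in either direction. Without OVX library 1 or OVX library 2 edgeR called 4 members each time, without WT library 1 it called 17 and without WT library 2 it called 27. The log2 fold change was below 0 for 41 members, with a median of -1.32, beside a median of -0.031 over all genes tested. For 35 members both OVX libraries lay below both WT libraries, a pattern that 21.2% of all genes tested showed. For Casp8ap2 and Cdca7 both lay above, as for 29.1% of all genes tested, and for the other 6 members the libraries overlapped. Summed over the 43 genes, the level was 1731 and 2310 CPM in OVX, against 4438 and 3194 CPM in WT. In such sums fewer cells in S phase and less RNA per cell cannot be told apart.

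**Figure D1:**
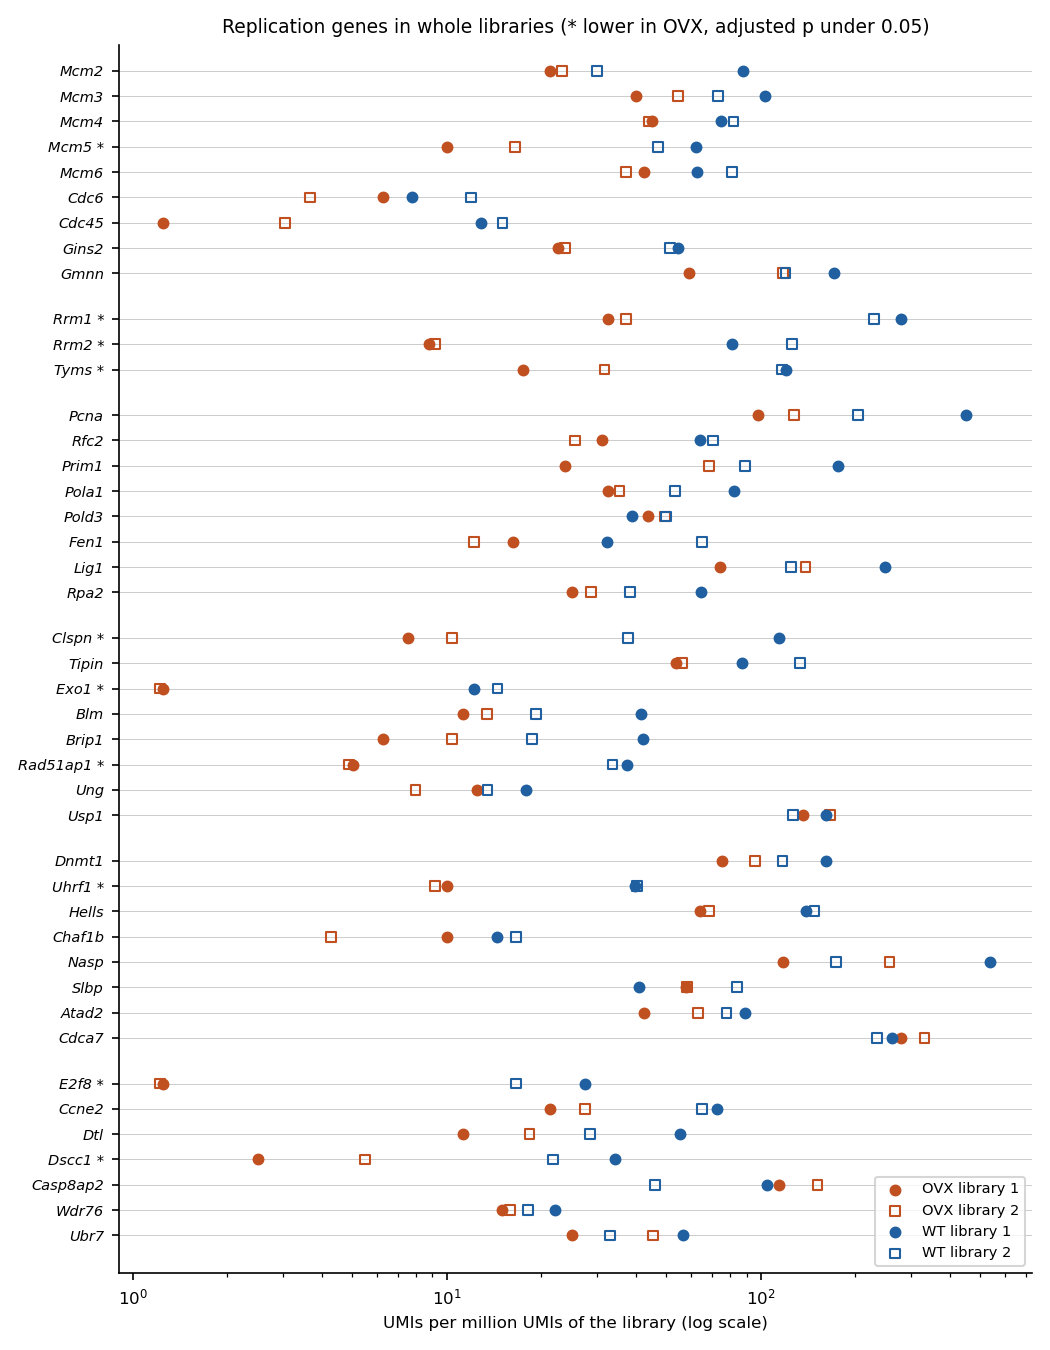
Level of each of the 43 replication genes in the 2 OVX libraries (orange) and the 2 WT libraries (blue), in CPM on a log scale, with genes grouped by role and an asterisk on the 10 genes called lower in OVX. Rrm2 lies at 8.76 and 9.16 CPM in OVX, against 81.0 and 125 CPM in WT, while Cdca7 and Usp1 have all 4 points close together.

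Deoxynucleotide supply was the role in which every member was called. Rrm2, the regulated small subunit of ribonucleotide reductase (build GRCm38, chromosome 12, 24708241 to 24714146, plus strand), had 7 and 15 UMIs in OVX, against 472 and 242 UMIs in WT. That is 8.96 ± 0.284 CPM in OVX and 103 ± 31.4 CPM in WT (SD, n = 2 libraries each), so the log2 fold change was -3.64 (SE 0.48, edgeR adjusted p = 0.00788). The large subunit gene Rrm1 (chromosome 7, 102441695 to 102469771, plus strand) had 32.5 and 37.3 CPM in OVX, against 278 and 230 CPM in WT, with -2.99 ± 0.42 for the log2 fold change (edgeR adjusted p = 0.0100). Neither subunit gene had an OVX library near the WT range. Tyms, the thymidylate synthase gene (chromosome 5, 30058202 to 30073617, minus strand), had 17.5 and 31.8 CPM in OVX, against 120 and 117 CPM in WT, which gave -2.35 ± 0.46 on the log2 scale (edgeR adjusted p = 0.0290). Summed over the 3 genes, the level was 58.8 and 78.2 CPM in OVX, against 479 and 471 CPM in WT. The calls of Rrm1 and Tyms were lost when either OVX library was left out (highest edgeR adjusted p 0.107 and 0.356), and the call of Rrm2 held under all 15 alternatives.

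Among the 9 genes of helicase loading and firing, 1 was called and all 9 had a log2 fold change below 0, from -2.64 to -0.83. Mcm5, a subunit of the replicative helicase (chromosome 8, 75109569 to 75128439, plus strand), had 10.0 and 16.5 CPM in OVX, against 61.9 and 47.1 CPM in WT, with -2.12 ± 0.46 for the log2 fold change (edgeR adjusted p = 0.0408). The other measured helicase subunits shared its direction without passing the test. Mcm2 had 21.3 and 23.2 CPM in OVX, against 87.8 and 30.1 CPM in WT, and 11.3% of its transcript end is also found in other genes. Mcm3 had 40.1 and 54.4 CPM in OVX, against 103 and 73.1 CPM in WT. Mcm4 had 45.1 and 44.0 CPM in OVX, against 74.6 and 81.9 CPM in WT. For Mcm2 to Mcm4 the groups did not overlap, and the gap to the nearer WT library was narrowest for Mcm2. Mcm6 had 42.6 and 37.3 CPM in OVX, against 62.8 and 80.8 CPM in WT, with an edgeR adjusted p of 0.207. Cdc6, which loads the helicase, had only 5 and 6 UMIs in OVX, against 45 and 23 UMIs in WT, or 6.26 and 3.67 CPM against 7.72 and 11.9 CPM. The groups did not overlap, but the counts are low and the edgeR adjusted p was 0.334. Gmnn, which encodes the licensing inhibitor geminin, had 58.8 and 118 CPM in OVX, against 170 and 120 CPM in WT, so that the higher OVX library lay next to the lower WT library. The helicase partners Cdc45 and Gins2 had log2 fold changes of -2.64 and -1.32, with edgeR adjusted p of 0.0565 and 0.106.

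No gene of the 8 that act in synthesis at the fork was called by edgeR, although 8 of 8 had a log2 fold change below 0, with a median of -1.26. Without adjustment 6 of them had a p under 0.05, and DESeq2 called Pcna and Fen1. Pcna, the sliding clamp that holds polymerases on DNA (chromosome 2, 132249162 to 132253314, minus strand), had 97.6 and 128 CPM in OVX, against 448 and 204 CPM in WT. Its log2 fold change was -1.66 ± 0.50 (edgeR adjusted p = 0.110), and the 2 WT libraries differed from each other by more than WT library 2 differed from OVX. Lig1, the ligase that seals Okazaki fragments, had 73.9 and 139 CPM in OVX, against 249 and 125 CPM in WT, so the groups overlapped. Fen1, the flap endonuclease of lagging strand synthesis, had a log2 fold change of -1.91 with an SE of 0.50 (edgeR adjusted p = 0.0753). The clamp loader subunit Rfc2, whose transcript end is 8.43% shared, had -1.39. The primase gene Prim1 had -1.61, the catalytic polymerase alpha gene Pola1 -1.13 and the single-strand binding protein gene Rpa2 -1.07. Pold3, a subunit of polymerase delta, stood apart from the rest of this role with 43.8 and 49.5 CPM in OVX, against 38.8 and 49.7 CPM in WT. Its log2 fold change was -0.046, and 0.094 when libraries were scaled by their totals alone.

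Of 8 genes for fork protection and repair, 3 were called lower. Clspn, which carries the checkpoint signal at stalled forks, had 7.51 and 10.4 CPM in OVX, against 114 and 37.8 CPM in WT, with -3.18 ± 0.64 for the log2 fold change (edgeR adjusted p = 0.0327). Rad51ap1, a gene of DNA repair, had 5.01 and 4.89 CPM in OVX, against 37.4 and 33.7 CPM in WT, which gave -2.97 ± 0.48 on the log2 scale (edgeR adjusted p = 0.0147). Exo1, an exonuclease of mismatch repair and end resection, had 1 and 2 UMIs in OVX, against 71 and 28 UMIs in WT. For Exo1 the ratio of pooled levels, WT over OVX, was 10.4 with a 95% counting interval of 3.44 to 51.1, and its edgeR adjusted p was 0.0276. The helicase genes Blm and Brip1 had log2 fold changes of -1.43 and -1.95, the fork protection gene Tipin -1.13 and the uracil glycosylase gene Ung -0.81, with edgeR adjusted p between 0.106 and 0.411. Usp1, a deubiquitinase that acts on PCNA and FANCD2, had 136 and 166 CPM in OVX, against 161 and 126 CPM in WT, and its libraries overlapped. Its log2 fold change was -0.060, and 0.082 when libraries were scaled by their totals alone.

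Among 8 chromatin and methylation genes, Uhrf1 alone was called. Uhrf1, which brings the maintenance methyltransferase to newly copied DNA, had 10.0 and 9.16 CPM in OVX, against 39.6 and 40.4 CPM in WT, with -2.20 ± 0.43 for the log2 fold change (edgeR adjusted p = 0.0304). Dnmt1, that methyltransferase, had 75.1 and 95.9 CPM in OVX, against 162 and 117 CPM in WT, with an edgeR adjusted p of 0.307. The partner genes thus had log2 fold changes of -2.20 and -0.83, and the difference between them was not tested. The helicase gene Hells had a log2 fold change of -1.25, the histone chaperone genes Chaf1b and Nasp -1.35 and -1.04, and the AAA ATPase gene Atad2 -0.78, with edgeR adjusted p of 0.113 or more. Nasp had 538 CPM in WT library 1 and 173 CPM in WT library 2, with the OVX libraries at 118 and 257 CPM. Slbp, which binds the stem loop of histone mRNA, had 57.6 and 58.0 CPM in OVX, against 40.8 and 83.9 CPM in WT, inside the WT range. Cdca7, which recruits HELLS to chromatin, was the most abundant member in OVX, with 279 and 332 CPM, against 261 and 234 CPM in WT.

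The remaining 7 genes regulate entry into S phase or have looser ties to the fork, and 2 of them were called. E2f8, an E2F family member that represses E2F targets late in S phase, had 1 and 2 UMIs in OVX, against 161 and 32 UMIs in WT (chromosome 7, 48866429 to 48881596, minus strand). The ratio of pooled levels, WT over OVX, was 20.2 with a 95% counting interval of 6.81 to 98.8, the edgeR adjusted p was 0.0140, and the call held under all 15 alternatives. Dscc1, part of an alternative clamp loader, had 2.5 and 5.50 CPM in OVX, against 34.3 and 21.8 CPM in WT, which gave -2.82 ± 0.58 on the log2 scale (edgeR adjusted p = 0.0349). Ccne2, the cyclin E2 gene, had 21.3 and 27.5 CPM in OVX, against 72.4 and 64.8 CPM in WT, and missed the threshold with an edgeR adjusted p of 0.0662. Dtl, which targets licensing factors for destruction, had a log2 fold change of -1.60, Wdr76 -0.52 and the ubiquitin ligase family gene Ubr7 -0.46. Casp8ap2, needed for histone transcription in S phase, had 114 and 152 CPM in OVX, against 104 and 46.1 CPM in WT, with a log2 fold change of 0.68 ± 0.49 (edgeR adjusted p = 0.493).

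Of the other called members, Mcm5, Uhrf1 and Exo1 lost the call without either OVX library, Dscc1 without OVX library 1 and Rad51ap1 without OVX library 2. Clspn kept it with each library left out. With at least 500 genes per cell all 6 of these genes lost the call, and at up to 10% mitochondrial UMIs Mcm5, Exo1, Dscc1 and Clspn did. Uhrf1, Exo1 and Clspn lost it when thinned to the shallowest library, and Mcm5 and Uhrf1 with the replicate number as a block. The highest edgeR adjusted p over the alternatives ran from 0.0695 for Clspn to 0.369 for Mcm5.

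Shares of the summed list are given as a description, since they follow from the fold changes above. Cdca7 held 16.1% and 14.4% of member UMIs in OVX, against 5.87% and 7.33% in WT. Rrm1 held 1.88% and 1.61% in OVX, against 6.27% and 7.19% in WT. Pcna held 5.64% and 5.53% in OVX, against 10.1% and 6.39% in WT. Cdca7, Usp1, Casp8ap2, Pold3 and Slbp, picked after their values were seen for log2 fold changes near 0 or above, summed to 631 and 756 CPM in OVX, against 605 and 540 CPM in WT. The other 38 genes summed to 1100 and 1554 CPM in OVX, against 3832 and 2654 CPM in WT. Those 5 genes made up 36.4% and 32.7% of the summed list in OVX, against 13.6% and 16.9% in WT, a direction that their choice fixes.

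Other genes of the cycle were counted from lists kept apart from the members. Of 59 symbols listed for further replication genes, 58 are in the files, 55 were tested and 6 were lower in OVX, with a median log2 fold change of -1.23. Without WT library 1 edgeR called 18 of them, and without WT library 2 it called 23. Among the 6 called, the largest fold changes were those of Pclaf, Asf1b, Cdca5, Brca1 and Tk1. Mcm10, which was not called, had a log2 fold change of -3.71 (edgeR adjusted p = 0.0504). Pclaf, a partner of PCNA whose transcript end is 5.54% shared, had 18.8 and 12.8 CPM in OVX, against 253 and 433 CPM in WT, with -4.60 ± 0.52 for the log2 fold change (edgeR adjusted p = 0.00466). Tk1, the thymidine kinase of the salvage route, had 17.5 and 18.9 CPM in OVX, against 119 and 91.7 CPM in WT, which gave -2.65 ± 0.42 on the log2 scale (edgeR adjusted p = 0.0137). The histone chaperone Asf1b, the cohesion factor Cdca5 and the repair gene Brca1 had 5, 4 and 5 UMIs over both OVX libraries, and log2 fold changes of -4.40, -3.85 and -3.53. Of 52 genes of G2 and mitosis, 30 were lower, with a median of -2.91, beside 10 of 43 members with a median of -1.32. Of 15 replication-dependent histone genes tested, 3 were lower, with a median of -1.78, in libraries of poly(A) RNA.

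To compare cells rather than libraries, each cell was thinned to 400 UMIs, which kept 923 and 1864 OVX cells and 2979 and 1944 WT cells. A cell with at least 3 member UMIs was found in 5.42% and 8.26% of OVX cells, against 25.0% and 17.2% of WT cells. The mean difference, OVX minus WT, was -14.3 percentage points, and the exact permutation test over libraries gave p = 0.333, the smallest that 2 against 2 allows. Both OVX libraries lay below both WT libraries at every count shown in the plot of thinned cells. Without thinning the shares were 7.88% and 24.8% in OVX, against 66.1% and 36.0% in WT, a wider gap than at equal depth. At least 1 member UMI was found in 44.3% and 51.2% of OVX cells, against 64.9% and 55.8% of WT cells. In fibroblast-like cells, a type from outside the epithelium, that share was 16.7% of 6 and 35.7% of 14 OVX cells at the same depth. In myeloid-like cells it was 37.5% of 8 and 22.2% of 27 OVX cells, against 66.7% of 12 cells in WT library 1. The share with at least 1 UMI was thus not read as expression, and shares with at least 3 UMIs are given for the comparison. At 3 UMIs the share was 12.5% and 3.70% of those myeloid-like OVX cells, and 16.7% of those in WT library 1. For the fibroblast-like cells it was 0% in both OVX libraries. These cells are too few to show whether 3 UMIs clears such a background.

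**Figure D2:**
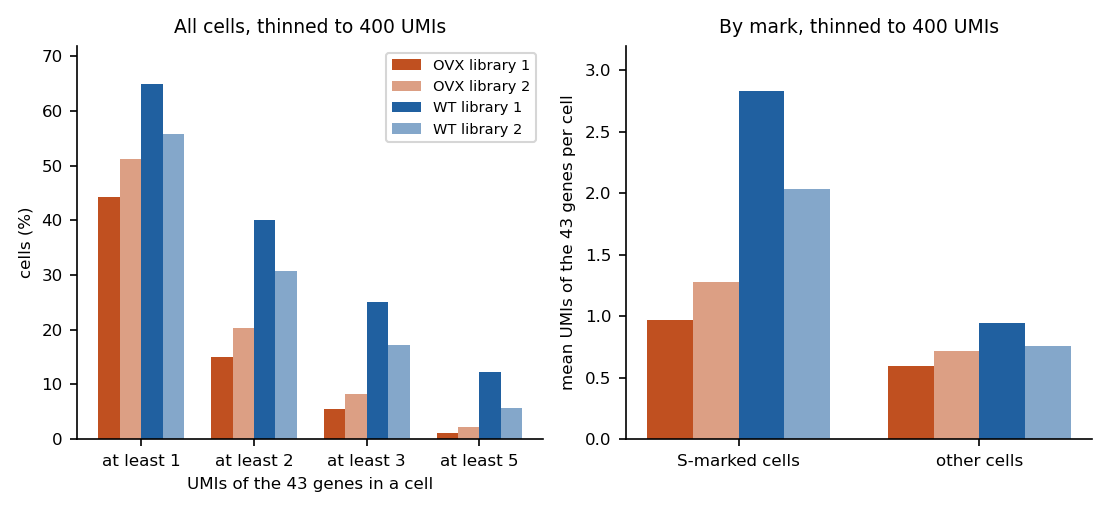
Left, share of cells (%) with at least 1, 2, 3 or 5 UMIs of the 43 genes after thinning to 400 UMIs, per library; right, mean number of those UMIs per thinned cell in S-marked and other cells. OVX bars (orange) lie below WT bars (blue) in each set, and S-marked cells average 0.964 and 1.28 member UMIs in OVX, against 2.83 and 2.03 in WT.

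S-marked cells were chosen with genes outside the list, as cells with at least 2 UMIs of the further replication genes at 400 UMIs. They made up 27.4% and 28.7% of OVX cells, against 44.8% and 39.1% of WT cells (exact permutation p = 0.333, the smallest possible). At 800 UMIs per cell and the same cut the groups overlapped, at 58.1% and 63.3% in OVX, against 69.6% and 62.9% in WT (exact permutation p = 0.667). At that depth they also overlapped at a cut of 1 UMI. At a cut of 3 UMIs they did not, with 31.1% and 37.3% in OVX, against 52.3% and 44.5% in WT (exact permutation p = 0.333). The mark is a range and not a type, since 161 and 320 OVX cells and 526 and 346 WT cells sit at exactly 2 UMIs, and 290 and 624 OVX cells and 826 and 550 WT cells at 1 UMI. It does pick out cells with more of the members. In OVX, 17 of 43 members were higher in S-marked than in other cells, where 0.916% of 10695 genes were. In WT, 43 of 43 were higher, where 7.26% of genes were.

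Within S-marked cells, the 3 nucleotide genes were again called lower in OVX. In these sums too, fewer S-phase cells among the marked ones and less RNA per cell cannot be told apart. Members called lower numbered 6 of 43 by edgeR, where 1.84% of 8034 genes were called lower, and DESeq2 called 4. They were Rrm2, Rrm1, Rad51ap1, E2f8, Tyms and Clspn, and the median log2 fold change of the list was -1.06. Rrm2 had 17.7 and 16.8 CPM in OVX S-marked cells, against 133 and 215 CPM in WT S-marked cells, with -3.36 ± 0.61 for the log2 fold change (edgeR adjusted p = 0.00684). Rrm1 had 64.7 and 48.4 CPM there in OVX, against 395 and 318 CPM in WT (edgeR adjusted p = 0.0101). Tyms had 41.2 and 48.4 CPM in OVX, against 204 and 206 CPM in WT (edgeR adjusted p = 0.0304). For these 3 genes no OVX library reached the WT range in S-marked cells. Cdca7 had 300.2 and 394 CPM in OVX S-marked cells, against 329 and 303 CPM in WT S-marked cells. The summed level was 2637 and 3439 CPM in OVX, against 6916 and 5213 CPM in WT. These 6 calls rest on both OVX libraries, since edgeR called none without OVX library 1 (9 at an unadjusted p under 0.05) and none without OVX library 2 (11 at that level), against 14 without WT library 2 and 2 with the replicate number as a block. At a mark of 3 UMIs edgeR called none, with 13 at an unadjusted p under 0.05.

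Outside S-marked cells the list lay closer together, at 1406 and 1855 CPM in OVX, against 2345 and 1875 CPM in WT. Of 35 members tested there, 2 were called lower, where 2.27% of 10112 genes were, namely Rrm1 and Rrm2. Rrm1 had 11.9 and 33.2 CPM in OVX, against 180 and 172 CPM in WT (edgeR adjusted p = 0.0180). Rrm2 had 9.49 and 6.11 CPM in OVX, against 37.0 and 67.7 CPM in WT (edgeR adjusted p = 0.0249). Both genes were thus lower in OVX in each set of cells. Without WT library 1, 5 members were called, without WT library 2, 9, and without OVX library 2, 1.

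**Figure D3:**
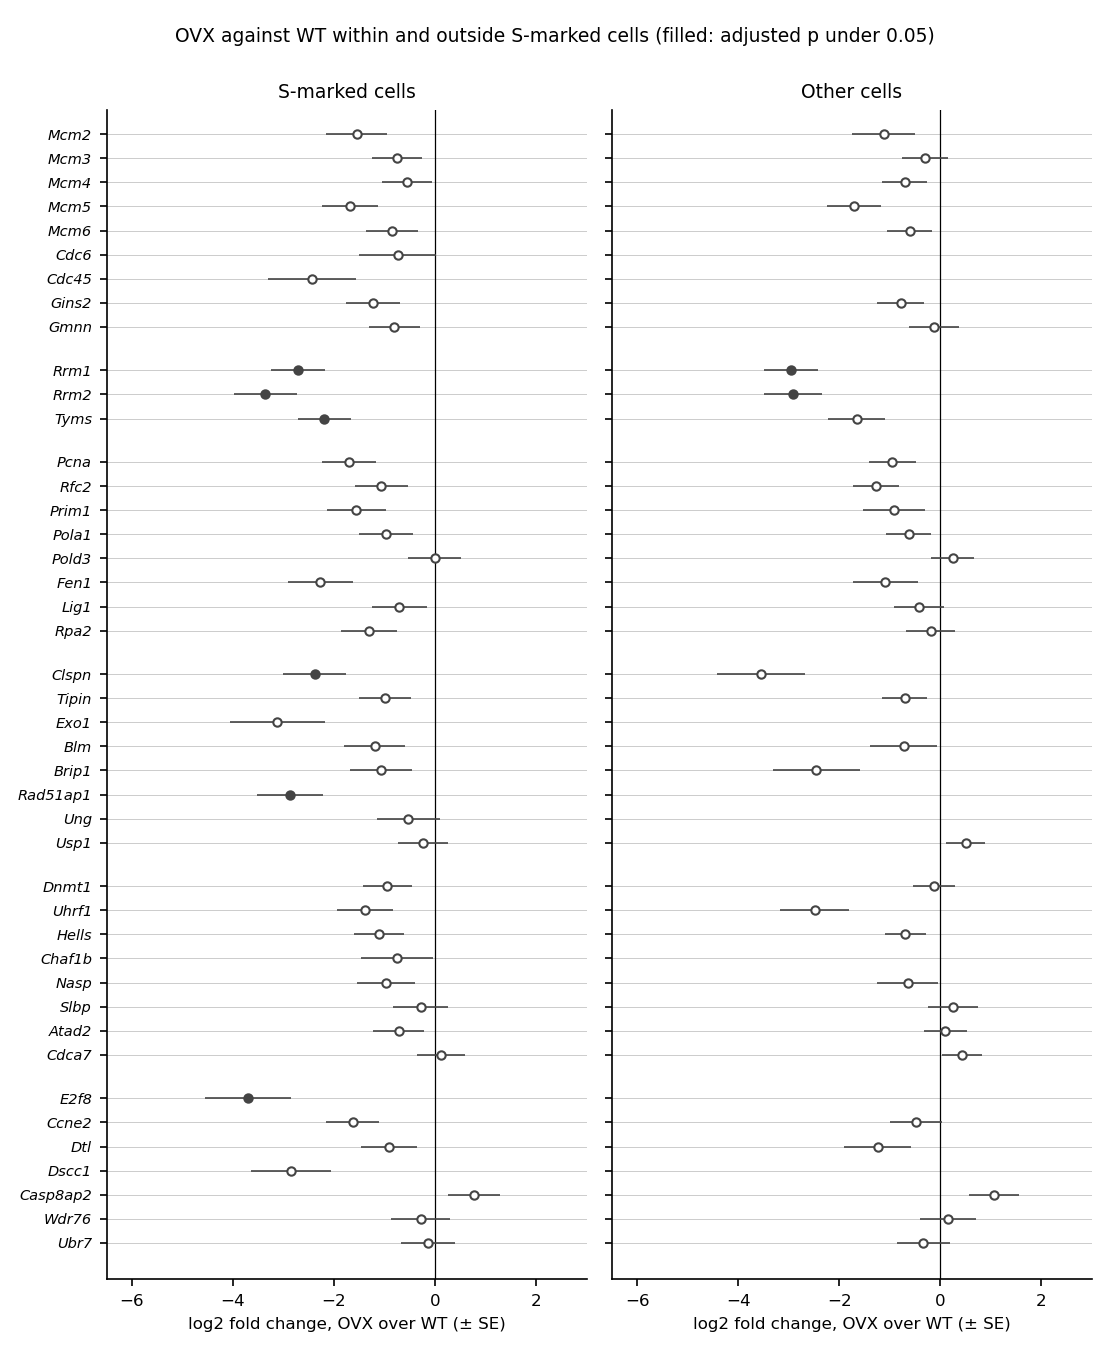
Log2 fold change of OVX over WT (± SE, edgeR) for each member in S-marked cells (left) and in other cells (right), with filled points at an adjusted p under 0.05 and no point where a gene had too few counts to be tested. Rrm1 and Rrm2 are filled on both sides, at -2.72 and -3.36 on the left and at -2.95 and -2.91 on the right.

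The difference between S-marked and other cells was itself compared between the groups. Here as well, fewer S-phase cells among the marked ones and less RNA per cell cannot be told apart. Of 43 members, 2 passed this interaction test, with library as a block, where 0.496% of 10695 genes did in that direction. For Pcna, S-marked cells held 135 and 187 CPM in OVX and 705 and 338 CPM in WT, while other cells held 90.1 and 105 CPM in OVX and 231 and 117 CPM in WT. Its S-marked excess was smaller in OVX, with a difference of -0.76 ± 0.20 on the log2 scale (edgeR adjusted p = 0.0205). For Gmnn, S-marked cells held 100.1 and 175 CPM in OVX and 281 and 202 CPM in WT, while other cells held 40.3 and 95.1 CPM in OVX and 76.9 and 64.2 CPM in WT. Its S-marked excess was also smaller in OVX, with a difference of -0.81 ± 0.23 (edgeR adjusted p = 0.0418). Both calls were lost at a mark of 3 UMIs, without WT library 1 and without OVX library 2. DESeq2 did not call Pcna (adjusted p = 0.468) and gave Gmnn no adjusted p. The Pcna call was also lost without OVX library 1, and the Gmnn call without WT library 2 (edgeR adjusted p = 0.123 and 0.0584). For Rrm1 and Rrm2 the interaction estimates were -0.070 ± 0.36 and -0.45 ± 0.66, and neither was called.

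Layers were compared in clusters made in each library without the cycle lists and the genes that correlate with them. Clusters still followed the cycle in part, since members or other cycle genes were among the leading genes of a cluster in OVX library 2 and of a large cluster in each WT library, so a cell's place was not independent of the members. Basal-like cells numbered 895 and 621 in OVX, against 1199 and 758 in WT. Suprabasal-like cells numbered 718 in OVX library 2, against 903 and 636 in WT, and none of the clusters in OVX library 1 took that name. Luminal-like cells, marked by genes of simple and mucous epithelium, numbered 416 and 89 in OVX, and no WT cluster took that name. These numbers depend on naming, as 375 of the 416 cells are a cluster led by Gm2694, Spink5, Serpinb11 and Dapl1 with 5 luminal and 6 suprabasal markers raised. The cluster of OVX library 2 with the same genes among its leading ones, of 422 cells, was named suprabasal-like, with 8 suprabasal and 5 luminal markers raised. In the clustering with all genes 1 luminal-like cluster held 438 and 788 OVX cells, against 4 and 1 WT cells. Unnamed clusters held 238 and 433 OVX cells, against 865 and 593 WT cells. The large WT ones were led by Krt15 and had 15 of 15 proliferating markers raised, so the basal-like class does not hold all WT cells with these markers. In the clustering with all genes, clusters led by proliferating markers held 10 and 20 OVX cells, against 666 and 438 WT cells, and their summed member level was 4088 and 4120 CPM in OVX, against 6918 and 5033 CPM in WT.

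In basal-like cells 10 of 39 members tested were lower in OVX, where 3.24% of 8093 genes were, with a median log2 fold change of -1.24. They were Rrm2, Rrm1, Tyms, E2f8, Rad51ap1, Clspn, Dtl, Mcm5, Gmnn and Exo1. Rrm2 had 4 and 1 UMIs in OVX basal-like cells, against 249 and 133 UMIs in WT basal-like cells, or 9.71 and 1.98 CPM against 110 and 174 CPM (edgeR adjusted p = 0.00631). E2f8 had 0 UMIs in both OVX libraries, against 79 and 13 UMIs in WT, and was at least 9.30-fold lower in OVX, taking 3 counts over the group as the floor. Exo1 had 1 and 0 UMIs in OVX, against 43 and 15 UMIs in WT, a pooled ratio of WT over OVX of 17.6 with a counting interval of 3.03 to 706. These are near the limit of counting in OVX. Gmnn and Dtl were called here and not in whole libraries. Gmnn had 43.7 and 31.7 CPM in OVX basal-like cells, against 177 and 117 CPM in WT basal-like cells, which gave -2.04 ± 0.49 on the log2 scale (edgeR adjusted p = 0.0416). Dtl had 9.71 and 5.95 CPM in OVX, against 60.6 and 38 CPM in WT (edgeR adjusted p = 0.0314). Cdca7 had 279 and 283 CPM in OVX basal-like cells, against 342 and 277 CPM in WT basal-like cells. A basal-like cluster of OVX library 1, with 225 cells, had a proliferating and no basal marker among its 10 leading genes, and 9 members were called without it, a check added after the clusters were seen. With clusters made from all genes 2 members were called. With the clusters made without cycle genes, 5 were called without OVX library 1, 3 without OVX library 2 and 22 without WT library 2.

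In WT, suprabasal-like cells held less of nearly the whole list than basal-like cells. Of 43 members, 40 were lower in suprabasal-like cells by edgeR, where 11.1% of 10074 genes were, with a median log2 fold change of -1.38, and DESeq2 called 30. The exceptions were Ubr7, Pold3 and Cdc45. The summed level was 2131 and 1620 CPM in suprabasal-like cells of WT libraries 1 and 2, against 5134 and 3526 CPM in their basal-like cells. Cdc6, Exo1 and Dtl had the lowest estimates, at -2.16, -2.14 and -2.08. Cdca7, not called between OVX and WT libraries, was lower here, with 159 and 150 CPM in suprabasal-like cells, against 342 and 277 CPM in basal-like cells (log2 fold change -0.95 ± 0.093; edgeR adjusted p = 5.07e-08). As the layers come from the same 2 libraries, no library could be left out of this test.

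**Figure D4:**
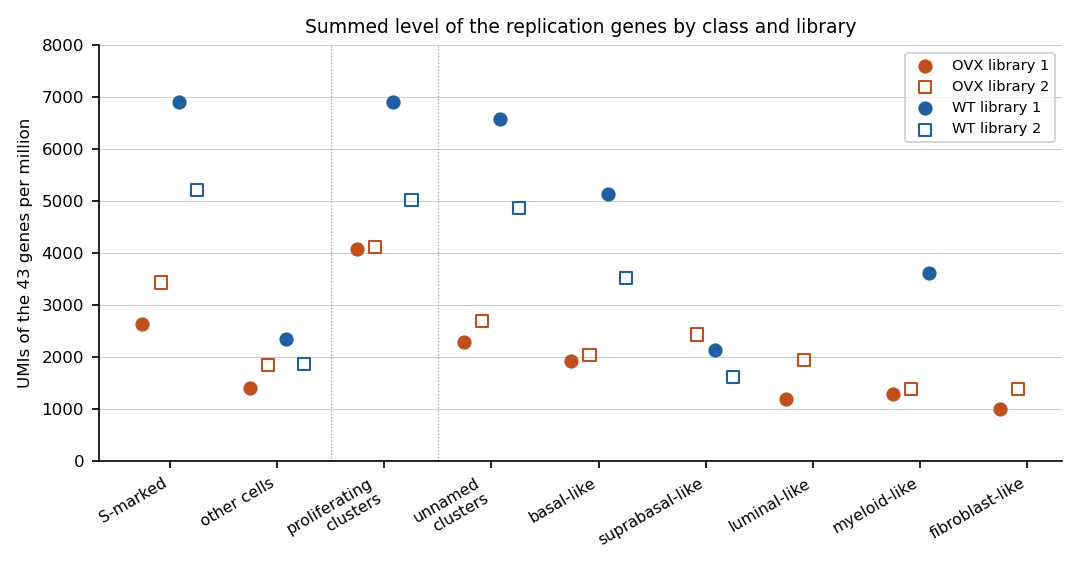
Summed level of the 43 genes, in CPM, in each class of cells and library, OVX in orange and WT in blue, with S-marked and other cells on the left, proliferating clusters of the all-gene clustering next and the clusters made without cycle genes on the right. WT basal-like cells lie at 5134 and 3526 CPM and OVX basal-like cells at 1927 and 2041 CPM, while the suprabasal-like points of both groups lie between 1620 and 2435 CPM.

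In OVX few members were called different between the layers, and the 2 OVX libraries were not alike. The summed level in OVX library 1 was 1185 CPM in luminal-like cells, against 1927 CPM in basal-like cells. In OVX library 2 it was 2435 CPM in suprabasal-like and 1939 CPM in luminal-like cells, against 2041 CPM in basal-like cells. Differentiated cells, suprabasal-like and luminal-like together, were compared with basal-like cells in both groups. By these names they are luminal-like alone in OVX library 1, mostly suprabasal-like in OVX library 2 and suprabasal-like alone in WT, so the kind of differentiated cell and the group cannot be told apart. In WT 38 of 40 members tested were lower in differentiated cells, with a median of -1.38, where 9.55% of 9715 genes were. In OVX edgeR called Usp1 lower and Gmnn higher and no other member, where 4.15% and 5.01% of genes were, with a median of -0.027. The test of the difference between the groups called 10 members, each with a layer difference that was higher in OVX than in WT, where 2.15% of genes were called in that direction. They were Gmnn, Cdca7, Pcna, Lig1, Dnmt1, Dtl, Prim1, Mcm3, Ccne2 and Atad2. Most of these calls rest on OVX library 2, without which the median interaction estimate was 0.042, against 1.23 with all libraries. Without it 2 members were called. Its cluster of 296 cells with Mcm3, Lig1, Prim1 and Dnmt1 among the leading genes was named by 3 raised suprabasal markers. That cluster had 7 raised proliferating markers, and 3 members were called without it, with a median interaction estimate of 0.47. A suprabasal-like cluster of WT library 1, of 130 cells, had 6 raised proliferating markers, and no fit left it out alone. Its summed member level was 3736 CPM, against 1780 and 2131 CPM in the other suprabasal-like clusters of WT library 1. Without WT library 1, and with DESeq2, 1 member was called, against 21 without OVX library 1.

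**Figure D5:**
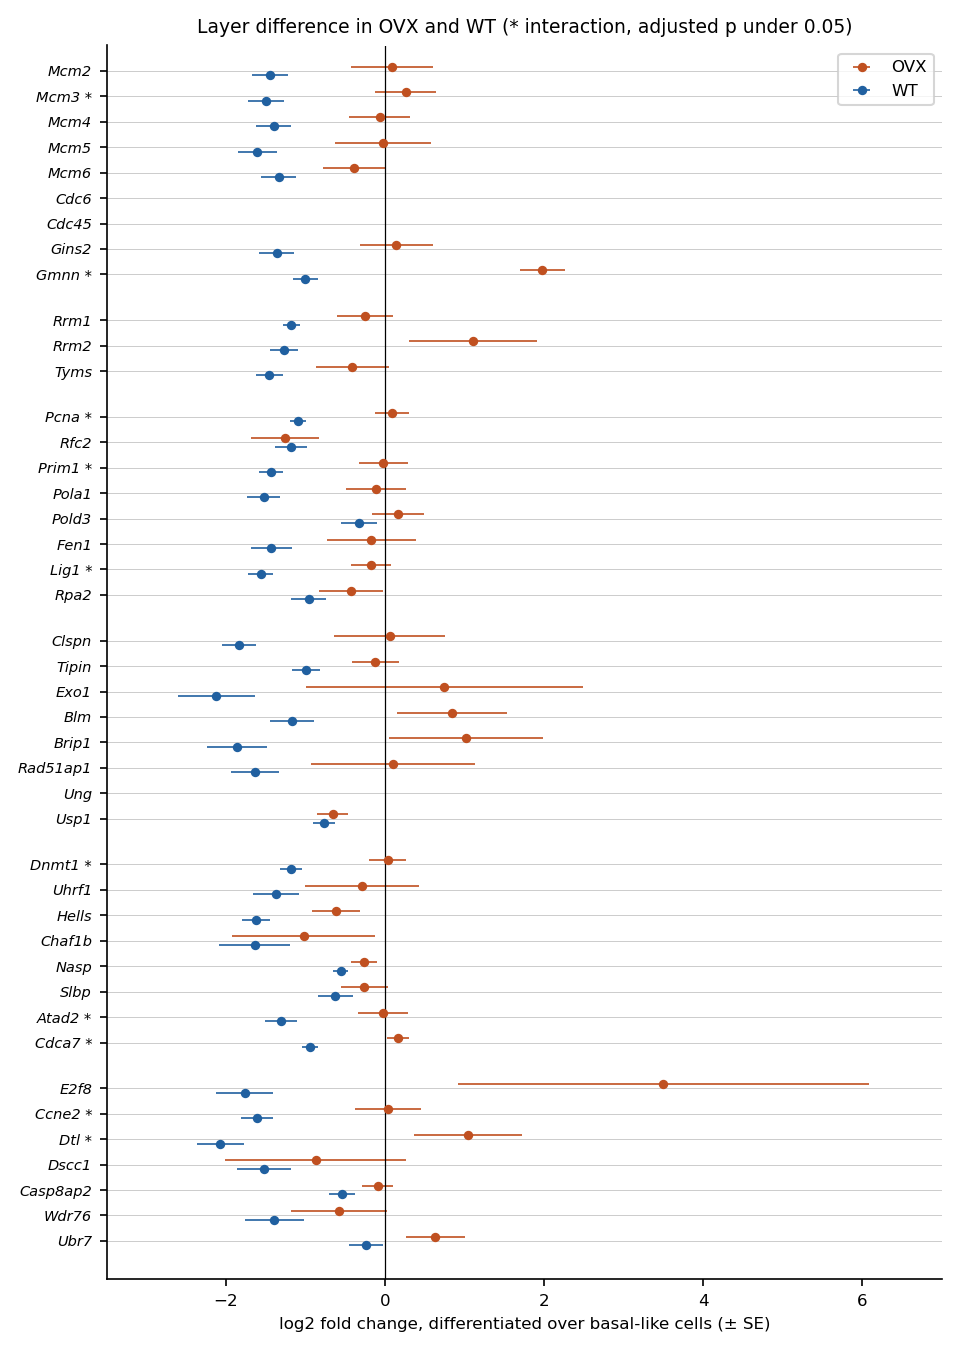
Log2 fold change of differentiated over basal-like cells (± SE, edgeR) for each member in OVX (orange) and WT (blue), with an asterisk where the difference between the groups passed an adjusted p of 0.05. WT points lie below 0, and OVX points scatter about 0 with Gmnn at 1.98.

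Gmnn and Cdca7 were the members whose layer difference was called both without OVX library 1 and without OVX library 2. Gmnn had 81.6 and 186 CPM in differentiated OVX cells, against 77.6 and 66.1 CPM in differentiated WT cells, and 43.7 and 31.7 CPM in basal-like OVX cells, against 177 and 117 CPM in basal-like WT cells. The interaction estimate was 2.98 ± 0.32 (edgeR adjusted p = 1.79e-07), and it stayed past the threshold without each library in turn and with DESeq2. In luminal-like cells Gmnn had 21 and 34 UMIs in the OVX libraries, or 81.6 and 377 CPM. In the same luminal-like cells Mcm5 had 0 UMIs in each library, Rrm2 had 2 and 0 UMIs, and Pcna had 18 and 6 UMIs. The class holds unlike clusters in the OVX libraries, so these levels are not of like cells. In the clusters led by Ltf, Postn and Pigr, of 41 and 89 cells, Gmnn had 7 and 34 UMIs, or 251 and 377 CPM. In the clusters led by Gm2694 and Spink5, of 375 and 422 cells, it had 14 and 68 UMIs, or 61.0 and 163 CPM. Cdca7 had 260 and 341 CPM in differentiated OVX cells, against 159 and 150 CPM in differentiated WT cells, with an interaction estimate of 1.10 ± 0.17 (edgeR adjusted p = 0.000139). In basal-like OVX cells it had 279 and 283 CPM, against 342 and 277 CPM in basal-like WT cells. The Cdca7 call was lost with DESeq2 and without WT library 1, with adjusted p of 0.0796 and 0.195.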

How the data were processed

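Per the labels, vaginal epithelium was digested with pronase and pressed from the tissue with forceps before Drop-seq. The values the authors deposited are whole UMI counts of genes by barcodes, not normalized, in 4 matrices. Per the submitters' processing notes, mm10 was the build and Seurat 2 a tool. No aligner or counter is given in the sources used here. A barcode was kept when it had 200 or more genes and no more than 20% of UMIs from mitochondrial genes. Scrublet called 8 of 8446 cells (0.0947%), which is too few for the caller to have worked, so no doublets were removed. The members and gene lists were chosen with earlier results of these data known. All 43 members are named, with each library's value for called members and for a fixed set of core genes. Of the further replication genes, the 5 called with the largest fold change are named. Library values of other members, such as Cdca7, Usp1, Pold3, Nasp and Casp8ap2, were added after their values were seen.

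Counts were summed per library and class and tested with edgeR 4.0.16 (TMM, filterByExpr, quasi-likelihood, Benjamini-Hochberg over all genes, two-sided, threshold 0.05; R 4.3.3). Interactions had library as a block, so their p-values leave out spread that both classes of a library share. DESeq2 1.42.0 and limma 3.58.1 (limma-trend) were alternatives. CPM is UMIs per 1000000 of the library or class; fold changes are edgeR estimates. Counting intervals (95%) and floors cover counting error only. The fits were tested on simulated data.

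Cells were clustered per library (scanpy 1.11.5, Leiden resolution 0.8) without the cycle lists and genes that correlate with them above 0.1. Clusters were named by at least 3 fixed markers. The thresholds for a raised marker (log2 ratio of 0.25 to the library's other cells, 5% of cells) were set after clusters had been seen, and proliferating markers were not held against a name. Gene positions and shared sequence (words of 50 bases over the final 500 bases of each transcript) come from GENCODE vM21, in which all 43 members matched, and promoters from RefSeq.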

Additional observations from a re-analysis of the deposited data

Results flagged for a closer look

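Every result here was picked out because a difference between cell states or layers itself differed between OVX and WT by an edgeR interaction test. The S-marked excess was smaller in OVX for Pcna, with a log2 difference of -0.756 (adjusted p = 0.0205), and for Gmnn, with -0.814 (adjusted p = 0.0418).

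The change of level between differentiated and basal-like cells was higher in OVX for 10 members. It was 0.26 in OVX and -1.50 in WT for Mcm3 on the log2 scale, a difference of 1.76. Pcna differed by 1.18, Cdca7 by 1.10, Dtl by 3.11, Prim1 by 1.41, Ccne2 by 1.64, Atad2 by 1.28, Lig1 by 1.39 and Dnmt1 by 1.21. Gmnn differed by 2.98, and its adjusted p ran up to 0.00761 over the alternatives.

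Clusters named suprabasal-like in OVX came from library 2 alone, though a cluster of library 1 that shares leading genes with 1 of them was named luminal-like. With OVX library 2 left out the differences of Mcm3 and Lig1 changed sign. Luminal-like markers summed to 1659 and 1511 CPM in OVX, against 423 and 413 CPM in WT. The part of cell type make-up in these differences was not tested.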

How the results depend on the processing

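Of 718 values of single genes in whole libraries over all alternatives, 612 kept direction and side of the threshold, 62 became called, 30 lost their call and 14 changed sign. Members called in whole libraries numbered 10 with edgeR, 18 without the gene filter, 6 at up to 10% mitochondrial UMIs, 4 with at least 500 genes per cell and from 4 to 27 with a library left out. All genes called numbered 587, then 1356 without the filter, 363 when thinned to the shallowest library and 308 to 1884 with a library left out. Of the further replication genes, 6 were called, 18 without the filter, 10 with limma-trend, 10 with all barcodes and 5 to 23 with a library left out.

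In S-marked cells the 6 calls became 10 without the filter, 0 in proliferating clusters (7 at an unadjusted p under 0.05), 0 at 3 UMIs and 0 to 14 with a library left out. In other cells the 2 calls became 7 without the filter, 4 outside proliferating clusters and 1 to 9 with a library left out. The 2 interactions with S-marked state became 1 without the filter, 0 at 3 UMIs, 0 with proliferating clusters, 0 with DESeq2 (7, 4 and 3 at an unadjusted p under 0.05) and 0 to 1 with a library left out. The 10 basal-like calls became 21 without the filter, 2 with all-gene clusters and 3 to 22 with a library left out. The 10 layer interactions became 5 with all-gene clusters, 1 with DESeq2, 3 without 1 cluster of OVX library 2, an alternative chosen after seeing the data, and 1 to 21 with a library left out. The cause of these moves was not tested. An arm left with 1 library is assumed to vary like the other group. Suprabasal-like against basal-like cells in WT could not be refitted with a library left out.

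Values whose sign changed were these. Leaving out libraries gave log2 fold changes of -0.044 to 0.35 for Cdca7, -1.83 to 0.046 for Nasp, -0.63 to 0.30 for Slbp, -1.07 to 0.039 for Ubr7, -0.22 to 0.10 for Pold3 and -0.29 to 0.17 for Usp1. With totals alone Pold3 was 0.094 and Usp1 0.082. At up to 10% mitochondrial UMIs Slbp was 0.027 and Pold3 0.096, with at least 500 genes Pold3 was 0.19, and thinned libraries gave Usp1 0.0094. Layer differences ran from -0.38 to 2.65 for Mcm3 and from -0.22 to 1.83 for Lig1 with a library left out.

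Deviations of same-numbered libraries from their group means had r = -0.57 over 11495 genes. Library 1 was the deeper one in WT and the shallower one in OVX, so this r cannot show whether the numbers pair the libraries. Both libraries numbered 1 were deposited with 3000 barcodes and both numbered 2 with 2000. With the replicate number as a block, 8 members were called in whole libraries, 2 in S-marked cells, 3 in other cells and 8 in basal-like cells. A block with crossed numbers, chosen after seeing the data, called 35 members, 38 further replication genes and 3489 genes in all. With 2 libraries a group and 1 to 15 UMIs of E2f8, Exo1 or Rrm2 in an OVX library, depth limits what low genes can show.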
